A study of Homo sapiens with 6 samples.

Results

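The mitochondrial genome carried 37 of the 61806 genes in the deposited table, chosen as all genes on the chromosome MT. They were 13 protein-coding genes, 2 rRNA genes and 22 tRNA genes, described apart below. RNA came from MDA-MB-231, a human triple-negative breast cancer cell line, in 6 libraries. The 2 shNC libraries are the control, and shHMGA2-1 and shHMGA2-2, with 2 libraries each, carry different shRNAs against HMGA2, a chromatin architectural protein. All 3 groups are MDA-MB-231 cells with no further treatment in the labels. The methods describe lentiviral delivery, puromycin selection and outgrowth of a single clone for the knockdown lines, so the effect of an shRNA and the state of the clone cannot be told apart. The titles give the groups used here, while the library names give WT for the controls and SH2 for the shHMGA2-1 samples. Library names of the shHMGA2-2 samples are built differently and carry neither tag.

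HMGA2 itself had counts of 2126 and 2161 in shNC, against 858 and 989 in shHMGA2-1 and 435 and 482 in shHMGA2-2, so it was lower in every library titled shHMGA2. Libraries held 16461178 to 17167293 counts, and the 5 markers of this line listed as present (VIM, CD44, AXL, CAV1 and MSN) had 6632 counts or more in each. Of these, edgeR called 1 higher and 3 lower in each shHMGA2 line. Over all genes tested, 15.8% were called higher and 17.6% lower in shHMGA2-1, and 29.5% and 29.2% in shHMGA2-2. CD44 was higher in both lines, while MSN (log2 fold change −0.71 and −1.10) and AXL (−0.42 and −0.94) were lower in both. Of 5 markers listed as absent, ESR1, the estrogen receptor gene, had 2 to 12 counts, PGR 0 to 2 and CDH1 0 to 4. EPCAM, an epithelial marker, had 127 to 146 counts in shNC and shHMGA2-2 but 274 and 302 in shHMGA2-1. GATA3, a luminal marker, had 38 to 58 counts in shNC and shHMGA2-1 but 262 and 318 in shHMGA2-2. Leukocyte markers summed to 0.118 to 0.607 CPM (counts scaled to a common library total), with 4 of 5 at or under the floor of 3 counts.

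Mitochondrial DNA is a small circle that is copied and transcribed inside the organelle by nuclear-encoded enzymes. Each strand is read as a long precursor. The tRNA genes lie between most of the others, and cutting them out releases the rRNAs and mRNAs, most of which then receive a short A tail. The mRNAs encode core subunits of the respiratory chain and ATP synthase, and the rRNAs and tRNAs serve the organelle's own ribosome. In these data 12 protein-coding and 14 tRNA genes are read in the heavy-strand precursor, while MT-ND6 and the other 8 tRNA genes are read in the light-strand precursor.

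Libraries were made after mRNA capture. In 6 of the 13 protein-coding genes the annotated gene ends inside the stop codon, which the A tail completes. The boundaries of MT-TV, the valine tRNA gene, show how rRNA and tRNA sequences abut without a gap. The following stretches (GRCh38, plus strand) hold 30 bases on each side of each boundary, with the tRNA in capitals. They lie at chrMT:1572-1631 and chrMT:1641-1700.
MT-RNR1 to MT-TV: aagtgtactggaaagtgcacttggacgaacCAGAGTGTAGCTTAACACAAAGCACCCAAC
MT-TV to MT-RNR2: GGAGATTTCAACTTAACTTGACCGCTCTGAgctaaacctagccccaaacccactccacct
The rRNAs also hold runs of A inside the gene. Such runs are not particular to them, since the longest in MT-ND5 spans 8 bases and that in MT-ND4 spans 7. Any part of these runs in mRNA capture was not tested. In the rRNAs the longest spans 6 bases in MT-RNR1 and 7 in MT-RNR2, shown in capitals at chrMT:968-1023 and chrMT:2432-2488 on the plus strand.
MT-RNR1: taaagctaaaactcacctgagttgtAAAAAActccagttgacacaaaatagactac
MT-RNR2: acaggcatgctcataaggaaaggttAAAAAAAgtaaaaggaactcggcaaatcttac

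The proline tRNA gene MT-TP, at chrMT:15956-16023 on the minus strand, is shown because it was the only tRNA gene with more than a few counts. It is the first gene that light-strand transcription reaches after the control region. Its anticodon is in capitals.
MT-TP: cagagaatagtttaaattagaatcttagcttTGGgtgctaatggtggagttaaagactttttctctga
MT-ATP8 at chrMT:8366-8572 and MT-ATP6 share 46 bases read in different frames, and reads over them cannot be given to either gene alone. The whole of MT-ATP8 and the start of MT-ATP6 at chrMT:8527-8601 follow, plus strand, with the shared bases in capitals.
MT-ATP8: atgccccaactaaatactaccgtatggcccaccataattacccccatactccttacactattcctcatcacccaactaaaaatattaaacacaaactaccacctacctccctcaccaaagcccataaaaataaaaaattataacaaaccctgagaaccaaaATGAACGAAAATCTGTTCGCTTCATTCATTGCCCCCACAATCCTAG
MT-ATP6: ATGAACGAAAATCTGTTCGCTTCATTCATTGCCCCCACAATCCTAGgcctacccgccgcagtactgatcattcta
MT-ND4L and MT-ND4 share 7 bases. All sequences were read from GENCODE version 29 transcripts.

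Mitochondrial genes took a larger share of the counts in the shHMGA2 lines than in shNC. Within the mitochondrial genes the protein-coding share was higher and the rRNA share lower. When scaled by library totals, the median gene tested was higher too, by a log2 change of 0.075 in shHMGA2-1 and 0.148 in shHMGA2-2. A larger share was thus not particular to mitochondrial genes. All 37 genes together took 6.74% and 6.82% of the counts in the shNC libraries. They took 7.045% and 7.507% in shHMGA2-1, and 7.861% and 7.388% in shHMGA2-2. No shHMGA2 library overlapped with shNC, while the shHMGA2 lines overlapped with each other. The means were 6.78% ± 0.0566, 7.28% ± 0.327 and 7.62% ± 0.334 (SD, n = 2). The 95% exact binomial intervals were narrow (6.728% to 6.752% in shNC replicate 1), but they cover counting error only and replicates differed by more. Shares were not tested, since there were 2 libraries per line.

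The 13 protein-coding genes took 5.29% ± 0.075 of the counts in shNC, 6.46% ± 0.263 in shHMGA2-1 and 6.66% ± 0.291 in shHMGA2-2 (SD, n = 2). The rRNA genes took 1.49% ± 0.0177, 0.811% ± 0.0637 and 0.963% ± 0.0428. The ratio of rRNA to protein-coding counts was 0.287 and 0.277 in the shNC libraries, 0.122 and 0.129 in those of shHMGA2-1, and 0.145 and 0.145 in those of shHMGA2-2. This ratio does not depend on how libraries are scaled, and its values in the 3 lines did not overlap. The tRNA genes took 0.001195% to 0.001549% of the counts in shNC and shHMGA2-1, against 0.005601% and 0.0051% in shHMGA2-2. In bulk RNA, the number of mitochondrial genomes per cell and the amount of RNA from each cannot be told apart.

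**Figure D1:**
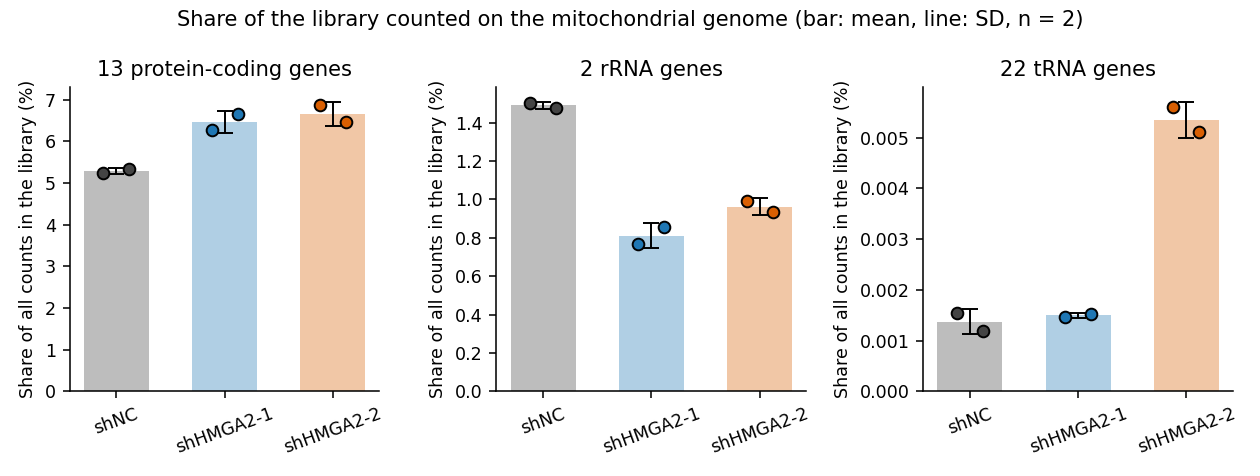
Share of all counts (%) on the protein-coding, rRNA and tRNA genes of the mitochondrial genome in each library, with 1 point per library and a bar for the mean of each line. The rRNA share lies at 1.478% or above in shNC and at 0.9928% or below in every shHMGA2 library.

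The largest change among the tested mitochondrial genes was in MT-RNR1, which encodes the rRNA of the small mitochondrial ribosomal subunit (ENSG00000211459, chrMT:648-1601). It had counts of 62525 and 65778 in shNC, against 12973 and 14051 in shHMGA2-1 and 13704 and 11543 in shHMGA2-2. Both shHMGA2 lines were far below shNC and overlapped with each other. MT-RNR1 was 5.01-fold lower in shHMGA2-1 (log2 fold change −2.33 ± 0.07 SE, edgeR quasi-likelihood adjusted p = 5.08e-17). In shHMGA2-2 it was 5.37-fold lower (−2.42 ± 0.07, edgeR adjusted p = 1.53e-18). Between the shHMGA2 lines it did not pass the test (−0.10, 95% interval −0.24 to 0.04, edgeR adjusted p = 0.264), but it was called lower in shHMGA2-2 without shHMGA2-1 replicate 1 (−0.17, adjusted p = 0.0471) or without shHMGA2-2 replicate 1 (−0.25, adjusted p = 0.0134). Past 2-fold lower, the background was 3.59% of all genes tested in shHMGA2-1 and 9.65% in shHMGA2-2.

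MT-RNR2, the rRNA gene of the large subunit (ENSG00000210082, chrMT:1671-3229), fell less. Its counts were 192686 and 185236 in the shNC libraries, 118442 and 132464 in those of shHMGA2-1, and 149716 and 143111 in those of shHMGA2-2, with no overlap among the 3 lines. It was 1.59-fold lower in shHMGA2-1 (−0.67 ± 0.06, edgeR adjusted p = 1.39e-09) and 1.36-fold lower in shHMGA2-2 (−0.45 ± 0.06, edgeR adjusted p = 2.91e-07). It was higher in shHMGA2-2 than in shHMGA2-1 (0.22 ± 0.06, edgeR adjusted p = 0.00216), a call that was lost with limma on log2(FPKM + 1) (limma adjusted p = 0.0537), without shHMGA2-1 replicate 1 (0.13, adjusted p = 0.0592) and without shHMGA2-2 replicate 1 (0.17, adjusted p = 0.0693).

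These rRNAs are cut from a common precursor with MT-TV between them, and the level of MT-RNR1 relative to MT-RNR2 differed between control and knockdown libraries. Per length, as FPKM (counts scaled by gene length and library total), this ratio was 0.53 and 0.58 in shNC. It was 0.179 and 0.173 in shHMGA2-1, and 0.15 and 0.132 in shHMGA2-2. The ratio was thus lower in every shHMGA2 library, and lowest in shHMGA2-2. MT-RNR1 ranked 8 by FPKM among all genes of the table in shNC and 22 in each shHMGA2 line. In an mRNA library the amount of an rRNA and its capture cannot be told apart.

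**Figure D2:**
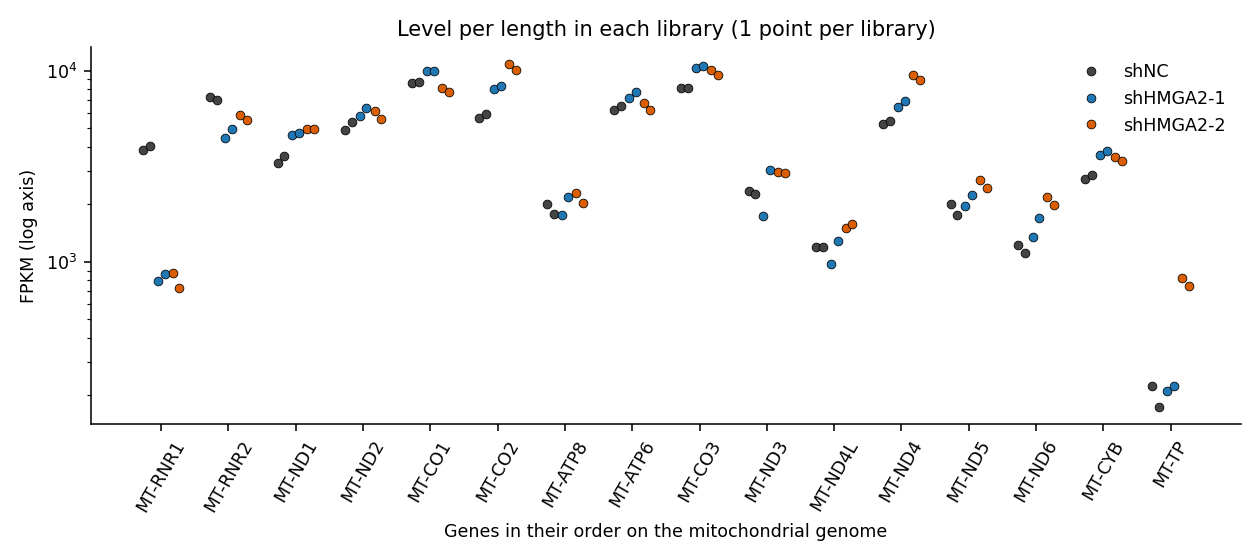
Level per length (FPKM, log axis) of the 16 mitochondrial genes that passed the filter on low counts, in genome order, with 1 point per library. MT-RNR1 is separated between shNC and both shHMGA2 lines, and MT-TP is higher in the shHMGA2-2 libraries than in all others.

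Of the 37 genes, 16 passed the filter on low counts, namely all protein-coding and rRNA genes and MT-TP. In shHMGA2-1 against shNC, 9 of 13 protein-coding genes were higher, 0 were lower and 4 did not pass the test at an adjusted p under 0.05. Across all 16110 genes tested 15.8% were called higher and 17.6% lower. The median log2 fold change of the 13 was 0.18, beside 0.01 over all genes tested. In shHMGA2-2 against shNC, 8 were higher, 1 was lower and 4 did not pass, where 29.5% of all genes were called higher and 29.2% lower. The median there was 0.22, beside 0.03 over all genes. None of the 13 changed by 2-fold or more in either line, where 4.89% and 11.7% of all genes were called at least 2-fold higher. The same shNC libraries served both comparisons.

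Not all of these calls held with other tools. In shHMGA2-1 DESeq2 did not call MT-ND6, MT-ND2, MT-CO1 and MT-ATP6 (DESeq2 adjusted p = 0.207, 0.127, 0.152 and 0.128). With limma on log2(FPKM + 1) these and MT-ND4 were not called (limma adjusted p = 0.0691, 0.133, 0.16, 0.132 and 0.0529). In shHMGA2-2 DESeq2 did not call MT-ND5 and MT-ND4L (DESeq2 adjusted p = 0.0531 and 0.237).

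Complex I, which takes electrons from NADH, contains the proteins of 7 mitochondrial genes. MT-ND1 had counts of 53451 and 58310 in shNC, against 75482 and 77085 in shHMGA2-1 and 78215 and 78126 in shHMGA2-2. Both shHMGA2 lines were above shNC, by 0.37 ± 0.05 on the log2 scale in shHMGA2-1 (edgeR adjusted p = 5.95e-06) and 0.40 ± 0.05 in shHMGA2-2 (edgeR adjusted p = 5.21e-07). The shHMGA2 lines lay close together, with a difference of 0.03 that did not pass the test (edgeR adjusted p = 0.629). MT-ND4, which encodes a proton-pumping membrane subunit, had counts of 123787 and 128392 in shNC, against 152241 and 164442 in shHMGA2-1 and 215134 and 203261 in shHMGA2-2. The 3 lines did not overlap and stood in that order. The change was 0.25 ± 0.05 in shHMGA2-1 (edgeR adjusted p = 0.000774, lost with limma at 0.0529) and 0.65 ± 0.05, or 1.57-fold, in shHMGA2-2 (edgeR adjusted p = 2.24e-10).

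MT-ND6, the light-strand protein-coding gene and also a complex I subunit, had counts of 10964 and 9927 in shNC, against 12182 and 15329 in shHMGA2-1 and 18812 and 17344 in shHMGA2-2. It was 1.64-fold higher in shHMGA2-2 (0.71 ± 0.08, edgeR adjusted p = 7.41e-08). In shHMGA2-1 the difference of 0.32 ± 0.08 passed the test (edgeR adjusted p = 0.00392). DESeq2 (DESeq2 adjusted p = 0.207) and limma on log2(FPKM + 1) (limma adjusted p = 0.0691) did not call it. The call was also lost without shHMGA2-1 replicate 2 (0.13) and without shNC replicate 2 (0.25). The strand setting of the counting is not given in the sources used here, so reads of MT-ND6 and of the opposite strand cannot be told apart.

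The other complex I genes moved less. MT-ND5, another pump subunit gene, was higher in shHMGA2-2 (0.32 ± 0.07, edgeR adjusted p = 0.000401), though not without shNC replicate 2 (0.22, adjusted p = 0.0511), and was not called in shHMGA2-1 (0.09, edgeR adjusted p = 0.35) except without shHMGA2-1 replicate 1 (0.20, adjusted p = 0.0226). MT-ND2 was higher in shHMGA2-1 (0.18 ± 0.06, edgeR adjusted p = 0.0291), a call lost without either shNC library or without shHMGA2-1 replicate 2, and was not called in shHMGA2-2 (0.07, edgeR adjusted p = 0.327). MT-ND4L, which shares a transcript with MT-ND4, was higher in shHMGA2-2 (0.25 ± 0.09, edgeR adjusted p = 0.0136), a call lost without any of the shNC or shHMGA2-2 libraries in turn. It had −0.13 in shHMGA2-1 (edgeR adjusted p = 0.255). MT-ND3 was called in neither line (−0.02 and 0.22, edgeR adjusted p = 0.928 and 0.156). In shHMGA2-2 it was called higher with scaling by library totals (0.34, edgeR adjusted p = 0.041) or upper quartile (0.34, 0.0299). The same held with no filter on low counts (0.20, edgeR adjusted p = 0.00147) and without either shHMGA2-1 library (0.22 in both).

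MT-CYB encodes cytochrome b, the only mitochondrially encoded subunit of complex III. Its counts were 52637 and 55459 in the shNC libraries, 71110 and 74246 in those of shHMGA2-1, and 66084 and 63485 in those of shHMGA2-2. The 3 lines did not overlap, with shHMGA2-1 highest. The change was 0.35 ± 0.05 in shHMGA2-1 (edgeR adjusted p = 1.68e-05) and 0.18 ± 0.05 in shHMGA2-2 (edgeR adjusted p = 0.00573). The call in shHMGA2-2 was lost without shNC replicate 1 (0.14, adjusted p = 0.16) and without shHMGA2-2 replicate 1 (0.13, adjusted p = 0.102).

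The 3 core subunit genes of complex IV, cytochrome c oxidase, were all higher in shHMGA2-1 but did not move together in shHMGA2-2. MT-CO2, which encodes the subunit that receives electrons from cytochrome c, had counts of 65685 and 68714 in shNC, against 93946 and 97259 in shHMGA2-1 and 121365 and 115036 in shHMGA2-2. It rose in both lines without overlap, by 0.43 ± 0.05 or 1.35-fold in shHMGA2-1 (edgeR adjusted p = 6.4e-07) and by 0.74 ± 0.05 or 1.66-fold in shHMGA2-2 (edgeR adjusted p = 1.69e-11). MT-CO1, the catalytic subunit gene, had counts of 226705 and 228105 in shNC, against 263733 and 262334 in shHMGA2-1 and 206575 and 198193 in shHMGA2-2. It was thus highest in shHMGA2-1 and lowest in shHMGA2-2.

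Against shNC, MT-CO1 changed by 0.13 ± 0.05 in shHMGA2-1 (edgeR adjusted p = 0.034) and by −0.25 ± 0.05 in shHMGA2-2 (edgeR adjusted p = 8.15e-05). The shHMGA2-1 call was lost without either shNC library (adjusted p = 0.238 without replicate 1 and 0.186 without replicate 2) and without shHMGA2-1 replicate 2 (0.0849). The shHMGA2-2 call was lost on log2(FPKM + 1) with limma, where the change was −0.13 (adjusted p = 0.262). Between the shHMGA2 lines MT-CO1 differed by −0.38 ± 0.05 (edgeR adjusted p = 3.25e-07), and this call held under each alternative run. MT-CO3, which encodes the remaining core subunit, rose by 0.31 ± 0.05 in shHMGA2-1 (edgeR adjusted p = 3.66e-05) and by 0.16 ± 0.05 in shHMGA2-2 (edgeR adjusted p = 0.00993). The shHMGA2-2 call was lost without either shNC library (adjusted p = 0.104 and 0.0916) and without shHMGA2-2 replicate 1 (0.148).

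Complex V, the ATP synthase, contains the proteins of MT-ATP6 and MT-ATP8, which are made from a common mRNA. MT-ATP6, the gene of a proton channel subunit, had counts of 71921 and 75842 in shNC, against 84484 and 90159 in shHMGA2-1 and 76050 and 70206 in shHMGA2-2. The shHMGA2-1 libraries were above the others, and shHMGA2-2 overlapped with shNC. MT-ATP6 was higher in shHMGA2-1 (0.16 ± 0.06, edgeR adjusted p = 0.0312), but the call was lost without either shNC library, without shHMGA2-1 replicate 2, and when the counts of its nuclear copies were added (0.15, adjusted p = 0.052). In shHMGA2-2 it was not called (−0.09, edgeR adjusted p = 0.167). The exceptions were the runs with no filter on low counts (−0.12, edgeR adjusted p = 0.0143) and without shHMGA2-2 replicate 1 (−0.18). MT-ATP8, the accessory subunit gene, had 6227 to 7801 counts in the 6 libraries and was called in neither line against shNC with all libraries (shHMGA2-2 against shNC 0.07, edgeR adjusted p = 0.51).

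**Figure D3:**
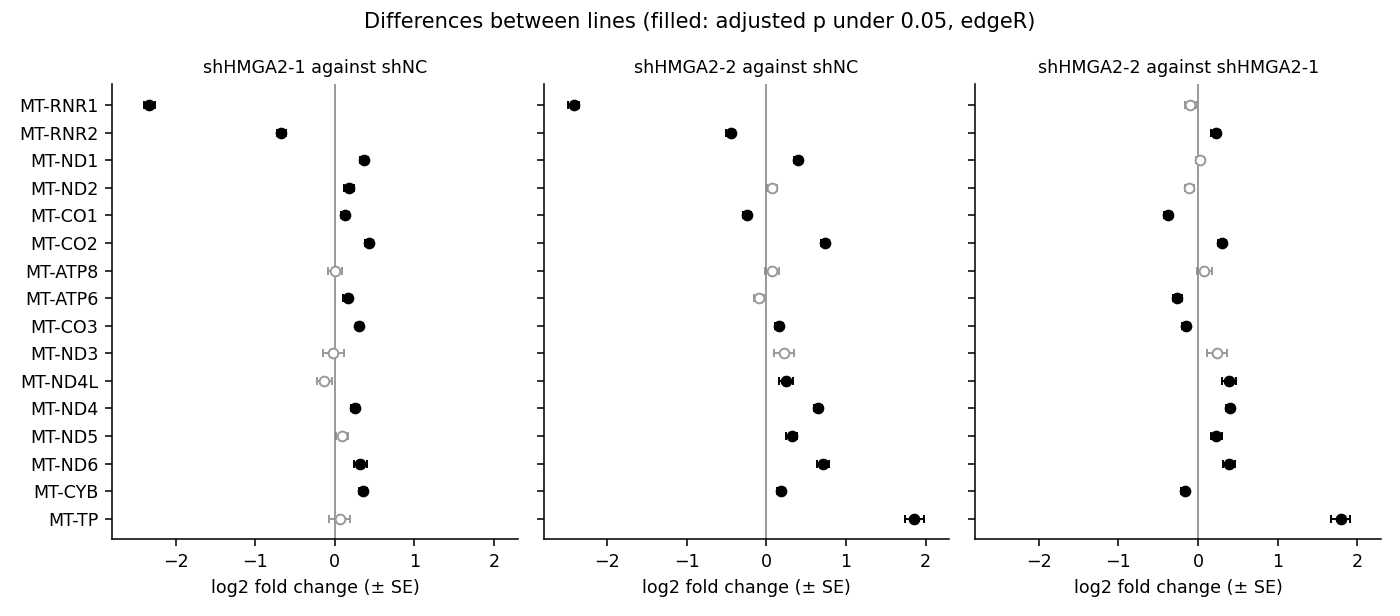
Log2 fold change (points, with the SE as bars) of the 16 tested mitochondrial genes in shHMGA2-1 and in shHMGA2-2, each against the same 2 shNC libraries. A further panel shows shHMGA2-2 against shHMGA2-1. Against shNC, MT-RNR1 lies at −2.33 and −2.42, while MT-TP lies at 0.06 in shHMGA2-1 and at 1.86 in shHMGA2-2.

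Against each other, the shHMGA2 lines differed for several genes. Relative to shHMGA2-1, shHMGA2-2 was higher for 5 protein-coding genes and lower for 4, with 4 not called. The background of this comparison was 24.5% of all genes higher and 25.7% lower. MT-ND4 (0.40 ± 0.05, edgeR adjusted p = 1.1e-06), MT-ND6 (0.39 ± 0.08, 0.000318), MT-ND4L (0.39 ± 0.09, 0.000552), MT-CO2 (0.30 ± 0.05, 3.5e-05) and MT-ND5 (0.23 ± 0.07, 0.00884) were higher. MT-CO1, MT-ATP6 (−0.26 ± 0.06, edgeR adjusted p = 0.000611), MT-CYB (−0.17 ± 0.05, 0.0122) and MT-CO3 (−0.15 ± 0.05, 0.0155) were lower. DESeq2 did not call MT-ND6, MT-ND4L, MT-ND5 and MT-CO3 here (DESeq2 adjusted p = 0.0527, 0.0559, 0.18 and 0.0615), and limma on log2(FPKM + 1) did not call MT-ND5, MT-ATP6, MT-CYB and MT-CO3 (limma adjusted p = 0.0719, 0.131, 0.266 and 0.439). Between these lines the calls of MT-CYB and MT-CO3 were lost without replicate 2 of either line (adjusted p = 0.0753 and 0.157, and 0.0923 and 0.183), and that of MT-ND5 without replicate 1 of either line (0.137 and 0.244). When the 4 shHMGA2 libraries were taken as a single group against shNC, MT-RNR1 (−2.37 ± 0.10, edgeR adjusted p = 0.00095), MT-RNR2 (−0.55 ± 0.10, 0.0353) and MT-ND1 (0.39 ± 0.07, 0.0295) were called, beside 2.34% of all genes higher and 2.92% lower. Without any of the 6 libraries in turn MT-ND1 was no longer called (0.32 to 0.45). MT-RNR2 was lost without either shNC library, without shHMGA2-1 replicate 2 or without shHMGA2-2 replicate 2. Without either shNC library, nearly all called genes of the whole table lost their call as well.

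The make-up of the mitochondrial mRNA, given as each gene's share of the counts on the 13 protein-coding genes, does not depend on library scaling. Of the 13 shares 8 did not overlap between shNC and shHMGA2-1, and 8 did not between shNC and shHMGA2-2. Between the shHMGA2 lines 10 did not. With 2 libraries in each line, shares can separate without a difference between lines. The 13 shares add up to the whole, so they do not vary independently, and no such count was made over all genes. Against shNC, the largest difference in mean share was that of MT-CO1 in both lines. It was 1.58 percentage points for shHMGA2-1 and 6.93 for shHMGA2-2. MT-CO1 took 25.3% ± 0.254 in shNC, 23.8% ± 1.01 in shHMGA2-1 and 18.4% ± 0.167 in shHMGA2-2 (SD, n = 2). MT-ND4 took 13.9% and 14.2% in the shNC libraries, 14.3% ± 0.222 in shHMGA2-1 and 19.0% ± 0.0338 in shHMGA2-2. MT-CO2 took 7.48% ± 0.131, 8.63% ± 0.124 and 10.7% ± 0.00534. The shares of MT-CO1 and MT-ND4 in shHMGA2-2 thus lay outside those of the other 4 libraries, and MT-CO2 separated all 3 lines. The 7 complex I genes together took 40.2% in shNC, 39.9% in shHMGA2-1 and 46.1% in shHMGA2-2, whereas the complex IV genes took 44.8%, 45.1% and 40.7%.

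**Figure D4:**
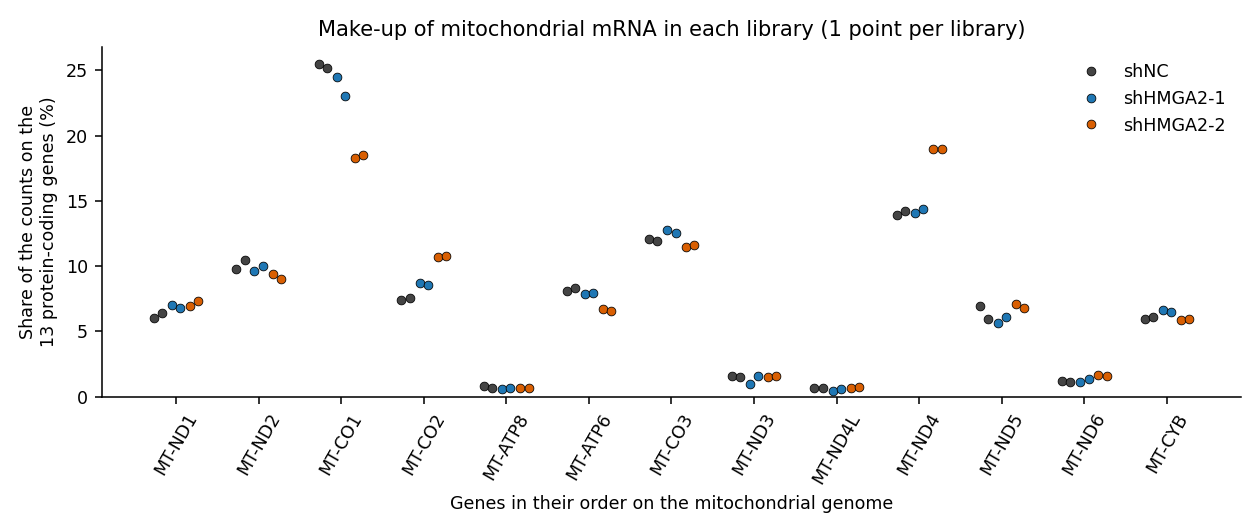
Share (%) of each protein-coding gene in the counts on all 13, in genome order, with 1 point per library. In shHMGA2-2 MT-CO1 falls to 18.3% and 18.5%, and MT-ND4 and MT-CO2 lie above the libraries of the other lines.

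Per length the order of the mRNAs also differed. In shNC MT-CO1 was highest (8686 FPKM ± 35.8, SD, n = 2), followed by MT-CO3 (8086 ± 14.1), MT-ATP6 (6390 ± 238) and MT-CO2 (5787 ± 183). MT-ND4 and MT-ND2, next in order, overlapped in their values. In shHMGA2-1 MT-CO3 (10464 ± 253) was above MT-CO1 (9949 ± 19.6). In shHMGA2-2 MT-CO2 led (10459 ± 453), with MT-CO3 (9791 ± 376) and MT-ND4 (9188 ± 418) next and MT-CO1 (7943 ± 276) the fourth. The ratio of MT-CO2 to MT-CO1, neighbours in the heavy-strand precursor, was 0.653 and 0.679 in the shNC libraries, 0.803 and 0.836 in those of shHMGA2-1, and 1.32 and 1.31 in those of shHMGA2-2. At the low end MT-ND4L and MT-ND6 overlapped in shNC, and MT-ND6 was above MT-ND4L in both shHMGA2 lines.

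Of the 22 tRNA genes 19 had 0 counts in all 6 libraries, which at this depth allows up to 0.175 to 0.182 CPM per library and covers counting error only. They were MT-TV between the rRNA genes, MT-TT, the threonine tRNA gene beside MT-TP, and MT-TL1, MT-TI, MT-TQ, MT-TM, MT-TW, MT-TA, MT-TN, MT-TY, MT-TS1, MT-TD, MT-TK, MT-TG, MT-TR, MT-TH, MT-TS2, MT-TL2 and MT-TE. MT-TF, the phenylalanine tRNA gene, had 0 to 4 counts and MT-TC, the cysteine tRNA gene, 0 to 7, both too low to be tested. MT-TP held 99.3% of all tRNA counts. It had counts of 258 and 202 in shNC, against 247 and 261 in shHMGA2-1 and 921 and 838 in shHMGA2-2. The shHMGA2-2 libraries were therefore above all others, and shHMGA2-1 overlapped with shNC.

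MT-TP was 3.62-fold higher in shHMGA2-2 than in shNC (1.86 ± 0.12, edgeR adjusted p = 1.76e-12) and 3.46-fold higher than in shHMGA2-1 (1.79 ± 0.12, edgeR adjusted p = 4.53e-12). In shHMGA2-1 it was not called (0.06 ± 0.13, edgeR adjusted p = 0.756). Per 1000 counts on MT-ND6, the other light-strand gene tested, MT-TP had at most 23.5 counts in any shNC or shHMGA2-1 library, against 49.0 and 48.3 in the shHMGA2-2 libraries. Mature tRNA and longer RNA that spans the gene cannot be told apart in these counts, and neither can the strands. Of 15 listed nuclear RNAs known to lack a long A tail, 7 were at or under the floor and 6 were tested. In shHMGA2-1 0 were called, and in shHMGA2-2 4 were higher (RN7SL1, SNORD3A, H1-2 and H4C8), beside 29.5% of all genes. H1-4 (0.91, edgeR adjusted p = 0.199) and H2AC20 (0.03, edgeR adjusted p = 0.965) did not pass, and the counts of RN7SL1 overlapped between shNC (598 and 281) and shHMGA2-2 (904 and 569). Their summed level was 49.7 and 31.3 CPM in the shNC libraries, 41.1 and 35.2 in those of shHMGA2-1, and 99.5 and 74.1 in those of shHMGA2-2. Their part in the MT-TP result was not tested.

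Replicates of shHMGA2-1 stood apart for the shortest mRNAs. MT-ND3 (346 bases) had 10279 counts in replicate 1 and 17831 in replicate 2, while its other 4 libraries held 13337 to 16744. The log2 ratio of replicate 2 to replicate 1 was 0.83 for MT-ND3, 0.42 for MT-ND4L, 0.36 for MT-ND6 and 0.35 for MT-ATP8. These are the 4 shortest of the 13 genes, at 207 to 525 bases. For the other 9 the ratio was 0.02 to 0.22, and the 9 nuclear genes under 400 bases with a mean of at least 10 CPM had a median of 0.02. Against shNC, MT-ND3 was 0.33 higher without replicate 1 (edgeR adjusted p = 1.17e-05) and changed by −0.49 without replicate 2 (edgeR adjusted p = 2.18e-08). MT-ND4L changed by −0.36 (edgeR adjusted p = 9.47e-06) and MT-ATP8 by −0.19 (edgeR adjusted p = 0.0384) without replicate 2.

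Copies of mitochondrial genes lie on nuclear chromosomes and can share reads with their sources. By symbol 402 copies were in the table, of which 347 had 0 counts in all libraries. MTATP6P1, MTND2P28 and MTCO1P12, all on chromosome 1, held 99.49% of the 88192 counts on copies. MTATP6P1 (chr1:633696-634376) matched MT-ATP6 at 98.53% of 681 bases and had 8.99% to 11.4% of its counts. MTND2P28 (chr1:629640-630683, 98.37% identity) had 3.54% to 4.13% of the counts of MT-ND2. MTCO1P12 (chr1:631074-632616, 98.7% identity) had 0.887% to 1.13% of those of MT-CO1. Reads of MT-ATP6, MT-ND2 and MT-CO1 could have been split with these copies. How far this affects their levels is not known, since the counting mode is not given. MTCO1P12 was lower in shHMGA2-2 (−0.19 ± 0.08, edgeR adjusted p = 0.0463), in the direction of MT-CO1. In shHMGA2-1 it was not called (−0.03, edgeR adjusted p = 0.82), while MT-CO1 was called higher there. MTATP6P1 (0.02 and −0.14) and MTND2P28 (0.06 and 0.05) were called in neither line against shNC. No copies of the rRNA genes were matched by symbol.

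Nuclear genes that serve the mitochondrial genome were counted by lists of their roles. Over all genes tested, the backgrounds were 15.8% higher and 17.6% lower in shHMGA2-1, and 29.5% and 29.2% in shHMGA2-2. Of 23 genes for its transcription and replication, 4 were higher and 3 lower in shHMGA2-1 (median −0.02), and 9 higher and 5 lower in shHMGA2-2 (median 0.10). TFAM, which packages and activates mitochondrial DNA, had counts of 3298 and 3299 in shNC, against 2767 and 3176 in shHMGA2-1 and 2423 and 2180 in shHMGA2-2. It was lower in both lines (−0.23 ± 0.08, edgeR adjusted p = 0.0281, and −0.60 ± 0.08, edgeR adjusted p = 6.25e-07). TFB2M, the initiation factor, was lower in shHMGA2-2 (−0.85 ± 0.11, edgeR adjusted p = 6.52e-07) and not called in shHMGA2-1 (−0.16, 0.288). POLRMT, the mitochondrial RNA polymerase, and TEFM, its elongation factor, were called in neither (POLRMT −0.16 and 0.10, edgeR adjusted p = 0.22 and 0.361). Of the replication genes POLG, the DNA polymerase, was higher in shHMGA2-2 (0.35 ± 0.09, edgeR adjusted p = 0.00144), and TWNK, the helicase, was called in neither line.

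MTERF3, which binds mitochondrial DNA, and MGME1, a nuclease, were lower in both lines (MTERF3 −0.41 and −0.76, MGME1 −0.35 and −0.62). RNASEH1 (0.44 and 0.50) and DNA2 (0.38 and 0.39), nucleases that also work in the nucleus, were higher in both. Of 13 regulators of mitochondrial biogenesis 12 were tested, with 2 higher and 4 lower in shHMGA2-1 and 1 higher and 2 lower in shHMGA2-2, where 29.5% of all genes were higher and 29.2% lower. PPARGC1A, the coactivator PGC-1alpha, had counts of 153 and 161 in shNC, against 50 and 42 in shHMGA2-1 and 23 and 21 in shHMGA2-2. The lines did not overlap, and the change was −1.85 ± 0.21 in shHMGA2-1 (edgeR adjusted p = 1.47e-07) and −2.91 ± 0.24 in shHMGA2-2 (edgeR adjusted p = 1.36e-10).

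Of 45 tested genes for mitochondrial RNA processing, modification and decay, 3 were higher and 11 lower in shHMGA2-1, and 14 higher and 12 lower in shHMGA2-2. The shares in shHMGA2-2 were near those of all genes, at 29.5% higher and 29.2% lower. MTPAP, the polymerase that adds the A tails, had counts of 2219 and 2266 in shNC, against 1705 and 1906 in shHMGA2-1 and 831 and 805 in shHMGA2-2. Against shNC it changed by −0.39 ± 0.08 in shHMGA2-1 (edgeR adjusted p = 0.000382) and −1.53 ± 0.08 in shHMGA2-2 (edgeR adjusted p = 6.28e-14), and the 3 lines did not overlap. LRPPRC and SLIRP, partners that stabilise mitochondrial mRNAs, were higher in shHMGA2-2 (0.47 ± 0.06, edgeR adjusted p = 5.54e-07, and 0.26 ± 0.10, edgeR adjusted p = 0.0312) and not called in shHMGA2-1. Of the degradation machinery, the nuclease PNPT1 was called in neither line, and the helicase SUPV3L1 was lower in shHMGA2-2 (−0.30 ± 0.09, edgeR adjusted p = 0.00415). TRMT2B, which methylates mitochondrial RNA, was lower in both lines (−0.75 and −0.89), and METTL17, a factor of small ribosomal subunit assembly, was higher in both (0.29 and 0.40).

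Of 17 translation factors, 0 were higher and 3 lower in shHMGA2-1, and 3 higher and 4 lower in shHMGA2-2. Both these counts and those of the synthetases stand beside the shares of all genes (15.8% higher and 17.6% lower in shHMGA2-1, 29.5% and 29.2% in shHMGA2-2). OXA1L, the membrane insertase, was lower in both lines (−0.25 and −0.64), as was RMND1 (−0.46 and −0.33). Of 22 mitochondrial aminoacyl-tRNA synthetases, 2 were higher and 2 lower in shHMGA2-1, and 5 higher and 4 lower in shHMGA2-2. The seryl enzyme gene SARS2 (0.62 and 1.34) and the glycyl enzyme gene GARS1 (0.17 and 0.29) were higher in both, and the asparaginyl enzyme gene NARS2 (−0.37 and −0.65) lower.

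Nuclear genes of the respiratory chain, whose proteins join those of mitochondrial genes, were counted by complex. Of 37 nuclear complex I genes, 15 were higher and 2 lower in shHMGA2-1 (median 0.20), and 19 higher and 3 lower in shHMGA2-2 (median 0.25). Of 11 nuclear complex IV genes, 7 were higher and 0 lower in shHMGA2-1 (median 0.25), and 5 higher and 0 lower in shHMGA2-2 (median 0.14). Among 18 complex V genes 7 were higher and 0 lower in shHMGA2-1, and 9 higher and 1 lower in shHMGA2-2. Complex III (9 genes) had 3 higher and 0 lower in shHMGA2-1, and 3 higher and 3 lower in shHMGA2-2. Complex II, which holds no mitochondrially encoded subunit, had 1 of 4 genes higher in shHMGA2-1, and 2 higher and 1 lower in shHMGA2-2. These counts stand beside the same backgrounds as those of the protein-coding genes above.

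Single complex genes called in both lines included NDUFA7 (1.25 and 1.26) and NDUFB2 (0.34 and 1.20), accessory complex I subunits, which were higher. NDUFAB1, the acyl carrier protein gene of complex I, was lower (−0.76 and −0.35). SDHA of complex II (0.31 and 0.64), UQCRQ (0.31 and 0.46) and UQCR10 (0.26 and 0.27) of complex III, and COX6A1 (0.40 and 0.56) and COX8A (0.23 and 0.49) of complex IV were higher. ATP5ME (0.44 and 0.95) and the ATPase inhibitor gene ATP5IF1 (0.34 and 0.97) of complex V were also higher. All of these had an edgeR adjusted p under 0.05 in each line, of which the largest was 0.0489 for UQCR10 in shHMGA2-1.

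**Figure D5:**
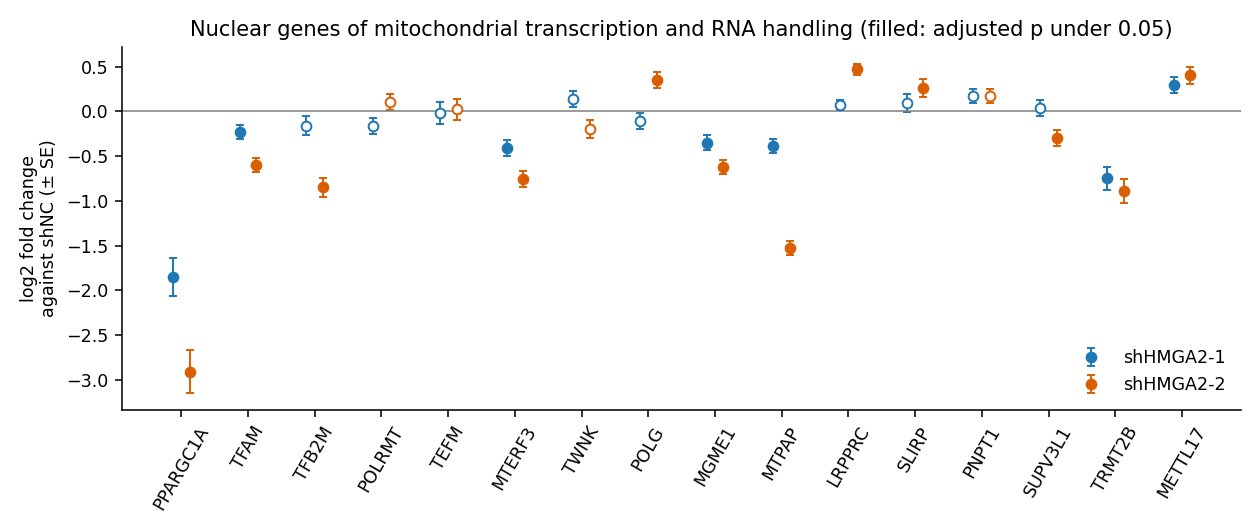
Log2 fold change (points, with the SE as bars) of named nuclear genes for mitochondrial transcription, RNA processing and biogenesis in each shHMGA2 line against shNC. PPARGC1A lies at −1.85 and −2.91 and MTPAP at −0.39 and −1.53.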

How the data were processed

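The 6 libraries were made from MDA-MB-231 RNA by mRNA capture. The sample titles gave each library's group and replicate number. The authors deposited a table with a raw count and an FPKM value for each gene and library. The submitters' processing notes name HISAT2 2.2.1, HTSeq 0.6.1 and GRCh38.p13, while the counting mode and the strand setting are not given in the sources used here. Dividing counts by gene length and library total gave back 100% of the deposited FPKM values, within a tolerance of 0.0051. Rows that name no gene numbered 0. All 37 mitochondrial genes had the coordinates of GENCODE version 29.

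Counts were tested with edgeR 4.0.16 in R 4.3.3. TMM factors were 0.958 to 1.05, filterByExpr was run by group, and the quasi-likelihood test used a model with 3 groups and Benjamini-Hochberg adjustment over the 16110 genes kept. A gene was called at an adjusted p under 0.05. Where a sentence lists several adjusted p values, all are from edgeR unless another tool is named. Intervals of a fold change are 1.96 SE on each side. Shares and make-up were not tested. Nothing says that replicates came from separate cultures, so p-values measure only the spread between these libraries. Replicates differed beyond counting noise (chi-square per degree of freedom 111 to 366 over the 16 tested mitochondrial genes).

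Named were all 37 genes, HMGA2, 12 nuclear factors chosen by name, at most 2 rising and 2 falling genes of each nuclear list called in both lines, and the 3 nuclear copies with the highest counts. Cell markers were listed too, and the 4 called RNAs without an A tail were named after their values were seen. The members and lists were chosen with earlier results of these data known. Alternatives were DESeq2 1.42.0, scaling by library totals, upper quartile or nuclear genes, no filter, limma 3.58.1 on log2(FPKM + 1) and log2(FPKM + 0.1), a replicate block, leaving out each library, and, chosen after seeing the data, adding nuclear copies. The scripts were also tested on simulated data, with gene means and spread taken from these libraries. Sample columns not used numbered 0.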

Additional observations from a re-analysis of the deposited data

Results flagged for a closer look

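The results below were picked out because the effects of the shHMGA2 lines differed from each other by a test of the difference itself, the contrast of shHMGA2-2 against shHMGA2-1 in edgeR. In this contrast 24.5% of all genes tested were called higher and 25.7% lower. Passing it was thus not particular to mitochondrial genes. Values are log2 differences. MT-TP differed by 1.79. Among the mRNAs, MT-ND4 differed by 0.40, MT-ND6 by 0.39, MT-ND4L by 0.39, MT-CO2 by 0.30 and MT-ND5 by 0.23, all higher in shHMGA2-2. MT-CO1 differed by −0.38, MT-ATP6 by −0.26, MT-CYB by −0.17 and MT-CO3 by −0.15, all lower in shHMGA2-2. Of the rRNAs, MT-RNR2 differed by 0.22. Of these 11, MT-CO1, MT-CO2, MT-ND4 and MT-TP were called under each of the 15 alternatives run. With 2 libraries in each line, the gap test for an outlying sample, which needs at least 4, was not run.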

How the results depend on the processing

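Calls made under all 15 alternatives were those of MT-RNR1, MT-RNR2, MT-ND1, MT-CO2, MT-CO3 and MT-CYB in shHMGA2-1, and of MT-RNR1, MT-RNR2, MT-ND1, MT-CO2, MT-ND4, MT-ND6 and MT-TP in shHMGA2-2. The range for MT-RNR1 was −2.40 to −2.25 and −2.58 to −2.29, and for MT-TP in shHMGA2-2 1.69 to 2.03. In the count of genes called higher in shHMGA2-1 (9 with edgeR), DESeq2 gave 5 and limma 4 with either pseudocount. Between the shHMGA2 lines, DESeq2 gave 4 higher (7 with edgeR), and the 4 lower became 2 with library totals or upper quartile scaling and 1 with limma at either pseudocount. With the shHMGA2 libraries as 1 group (1 higher, 2 lower), the higher count was 2 with DESeq2, 4 with library totals or upper quartile, and 0 without a filter or with limma, while the lower count was 1 with library totals, upper quartile, no filter or limma. Leaving out each library gave 5 to 11 higher and 2 to 5 lower in shHMGA2-1, 6 to 10 and 3 to 4 in shHMGA2-2, 5 to 9 and 2 to 6 between these lines, and 0 and 1 to 2 with a single group. The 5 higher in shHMGA2-1 came without shNC replicate 2 or shHMGA2-1 replicate 2, the 5 lower without the latter, and the 2 lower between the lines without replicate 2 of either line. MT-ND3 in shHMGA2-1 turned from −0.02 to 0.33 without shHMGA2-1 replicate 1, and was −0.49 without replicate 2. Calls over the whole table changed between runs too, and with a single group nearly all were lost without either shNC library. In shHMGA2-1, 2545 of the 16110 genes tested were called higher with edgeR and 1730 with DESeq2. With limma they were 2389 on log2(FPKM + 1) and 2480 on log2(FPKM + 0.1). The cause was not tested in any of these cases. Library totals moved the median of all genes from 0.028 to 0.148 in shHMGA2-2, and calls in shHMGA2-1 from 47.2% to 58.7% higher. In shHMGA2-2 MT-ATP6 and MT-ND2 were not called in the main run. MT-ATP6 ran from −0.18 to 0.03 and was called lower without a filter and without shHMGA2-2 replicate 1. MT-ND2 ran from −0.02 to 0.19. It was called higher with library totals (0.19, edgeR adjusted p = 0.0058) and upper quartile scaling (0.19, 0.01).

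Outside the 10 highest nuclear genes, the shNC share was 5.5% for protein-coding and 1.55% for rRNA genes (5.29% and 1.49% of all counts). Per length in place of counts, the log2 change of the share of mitochondrial mRNA in shHMGA2-2 was −0.49 for MT-CO1 (−0.46 by counts), 0.50 for MT-CO2 (0.52), −0.08 for MT-CO3 (−0.06) and 0.41 for MT-ND4 (0.44). The replicate numbers were only shared, with correlations of −0.022, 0.002 and −0.1 between the lines' replicate differences. With a replicate block the counts were 7 higher and 2 lower in shHMGA2-1, 9 and 3 in shHMGA2-2, 8 and 4 between these lines, and 0 and 1 with a single group. Of the tRNA genes 1 could be tested, and why the others had few counts or none was not tested.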
